A study of Homo sapiens with 8 samples.

Results

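RNAPII peaks were examined at 10 immediate-early genes of the AP-1 and ATF3 group, out of 19748 protein-coding genes measured in the same way. The members were chosen by name as a gene family, and they are FOS, FOSB, FOSL1, FOSL2, JUN, JUNB, JUND, ATF3, IER2 and IER5. The experiment profiled RNAPII by ChIP-seq in MDA-MB-453, a long-established human breast cancer line. The source study places this line in the luminal-like subgroup of triple-negative breast cancer. Cells were taken after 4 h with either vehicle or 600 nM of the CDK9 inhibitor CDDD11-8, labelled D11-8 at deposit. Each treatment had 2 ChIP libraries, which the methods describe as biological replicates of consecutive passages, and all 4 libraries came from this same line. A matched chromatin input had been sequenced for each ChIP library and had served as the background for peak calling. Because the genes and the measures described here were selected with results of these same libraries known, every value is a description and no test is attached to it. The exact permutation test with 2 against 2 libraries has 6 splits and a smallest two-sided p-value of 0.333, so that test could not have reached 0.05.

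AP-1 is a transcription factor built as a dimer of basic leucine zipper proteins, in which a JUN family protein pairs with another JUN protein, a FOS family protein or an ATF protein such as ATF3. Many of the genes of these proteins are switched on within minutes of growth factor, kinase or stress signals, without new protein synthesis. Most of the genes are short, with few introns. RNAPII is held shortly after initiation at many such genes, and CDK9, the kinase of the elongation factor P-TEFb, releases it into the gene. IER2 and IER5 are early response genes of a related kind that encode nuclear proteins without a leucine zipper.

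Promoter sequences were read from GRCh37 upstream of the canonical TSS of 9 members. FOSL1 is named only. The window searched for motifs ran from 250 bp before to 50 bp after the TSS on the coding strand, and both strands were searched. The TATA box, TATAAA, was found in 4 of the 9 windows (44.4%), in comparison with 9.74% of 19743 protein-coding promoters read in the same way. It lay at -33 in FOS, -30 in FOSB, -31 in JUNB and -32 in ATF3. These promoters are shown because they share a core element while their RNAPII peaks differ widely in strength and width, as described under each gene. Each line gives the 150 bases before the TSS, 5′ to 3′, with the TATA box in capitals. The FOS stretch is chr14:75745381-75745530 (+ strand), that of FOSB is chr19:45971104-45971253 (+), that of JUNB is chr19:12902150-12902299 (+) and that of ATF3 is chr1:212781953-212782102 (+).
FOS: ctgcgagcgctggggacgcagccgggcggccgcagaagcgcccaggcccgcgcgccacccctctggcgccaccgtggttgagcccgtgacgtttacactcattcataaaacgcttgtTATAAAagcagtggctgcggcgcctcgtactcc
FOSB: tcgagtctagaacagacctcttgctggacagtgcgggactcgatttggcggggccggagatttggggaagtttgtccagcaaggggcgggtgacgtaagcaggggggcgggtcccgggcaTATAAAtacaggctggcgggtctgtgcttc
JUNB: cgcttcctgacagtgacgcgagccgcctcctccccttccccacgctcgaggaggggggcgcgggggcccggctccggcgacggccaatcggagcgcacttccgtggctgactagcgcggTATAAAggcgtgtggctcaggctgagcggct
ATF3: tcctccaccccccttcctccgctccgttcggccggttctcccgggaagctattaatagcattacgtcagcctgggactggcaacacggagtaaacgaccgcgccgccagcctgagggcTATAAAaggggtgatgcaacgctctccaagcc
The cAMP response element, TGACGTCA, was found in 1 of the 9 windows, at -200 in JUND, and in 2.71% of all promoters. The AP-1 site, TGANTCA, was found in 1 window, at 4 in FOSL2, and in 5.44% of all promoters. A CArG box, the element bound by serum response factor, was found in none of the 9 windows and in 1.21% of all promoters. Median GC content was 67.3% in the members' windows and 63.7% over all. A match is a description of letters, and the absence of one says nothing about the factor.

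Each deposited list gives the summits of peak regions with their pileup, the number of overlapping fragments after the peak caller's scaling, and their fold enrichment over the local background. Summits that share a region count as 1 peak here, with the highest fold enrichment among them. A promoter peak was the region with the highest fold enrichment within 300 bp of the TSS. Gene coverage was the percent of bases from 300 bp after the TSS to the transcription end site (TES) inside any peak, and post-TES coverage was the same percent over the next 3 kb. A body summit was a summit from 300 bp after the TSS to the TES. The longest isoform was used, except that ATF3 is described at its canonical isoform for the reason given below. Counts of members used the longest isoform, ATF3 included. The vehicle lists held 78306 and 57493 peaks and the CDDD11-8 lists 25897 and 21842, while promoter peaks numbered 8479 to 8720 in each of the 4. Read totals are not part of the lists, and library depth is therefore unknown. The pileups were whole numbers in the vehicle lists and multiples of 0.743 and 0.962 in the CDDD11-8 lists, so pileups are given per list and not compared as levels. The cultures were bulk samples, in which a change in all cells and a change in some of the cells cannot be told apart.

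A promoter peak was present in all 4 libraries at 7 of the 10 members, namely FOS, FOSL2, JUN, JUNB, JUND, IER2 and IER5, in comparison with 49.1% of all protein-coding genes. ATF3 had one in all 4 libraries at its canonical TSS only, FOSB had one in the CDDD11-8 libraries only, and FOSL1 had none in any library. The regions ranged from a single summit at the TSS of FOS with vehicle to domains of over 18 kb around JUNB.

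**Figure D1:**
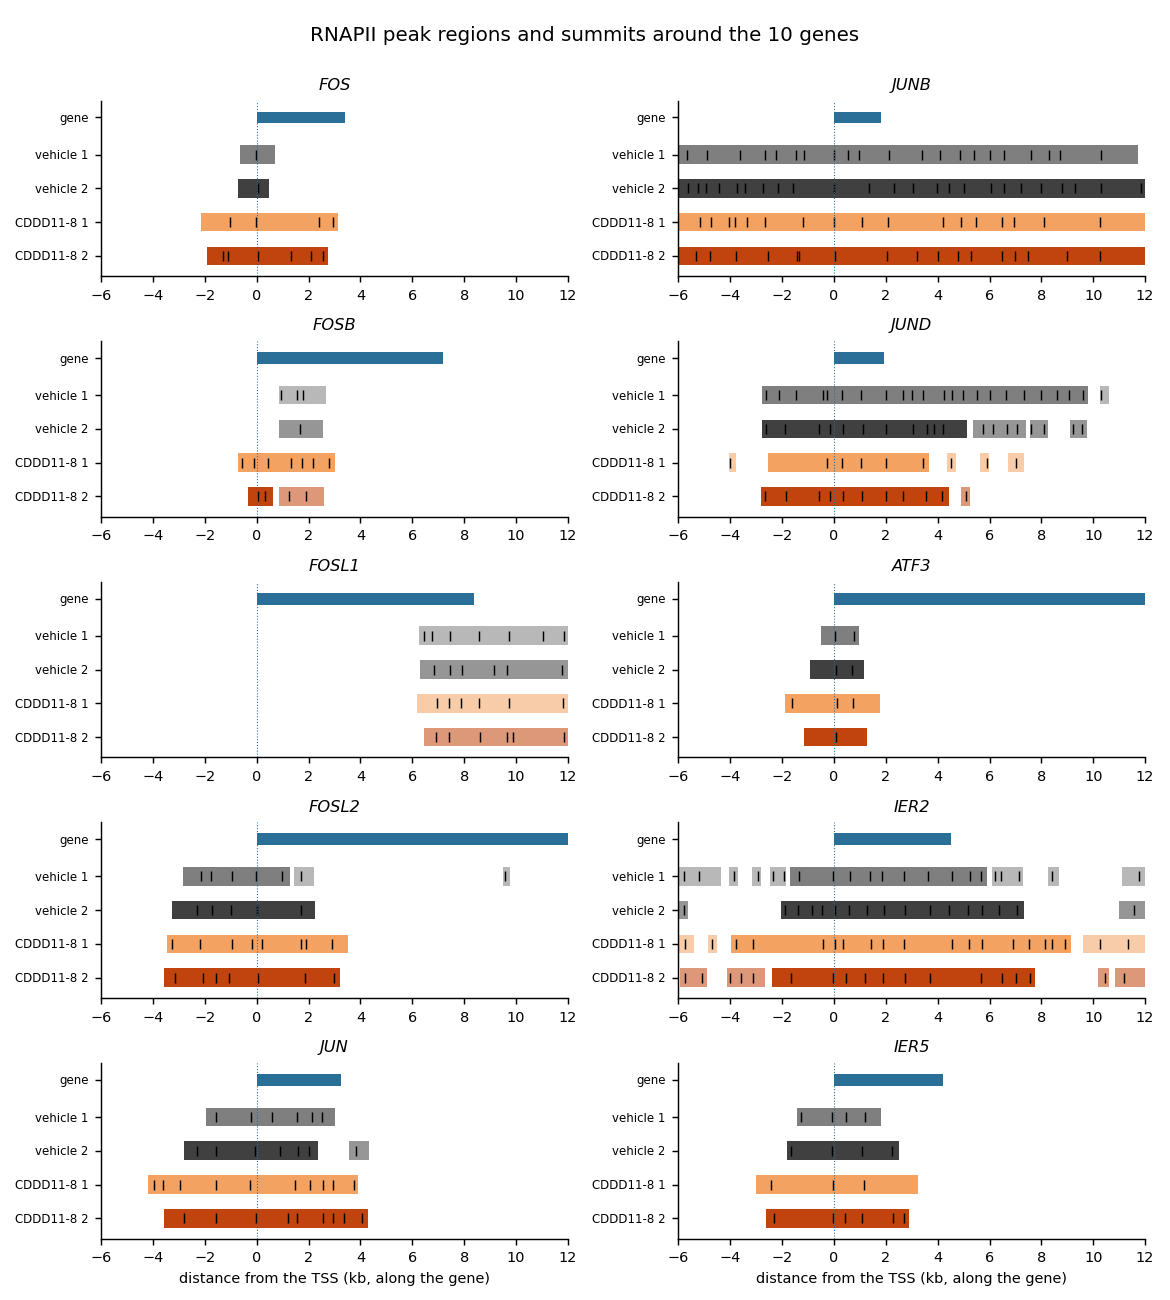
Peak regions (bars) and summits (black ticks) in the 4 libraries around each of the 10 genes, by distance from the TSS in kb along the gene, with the gene as a blue bar on top and drawing limited to the range from 6 kb before to 12 kb after the TSS. Full colours mark the promoter peak and pale colours other regions. The FOS peak ended 722 and 461 bp after the TSS with vehicle and 3142 and 2736 bp after it with CDDD11-8, and FOSL1 had regions only from its 3′ part onwards.

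FOS encodes the founding FOS family protein, which needs a JUN partner to bind DNA. The gene lies on chromosome 14 from 75745531 to 75748933 of GRCh37, on the plus strand, with 4 exons in 3403 bp. Its promoter peak had a fold enrichment of 2.71 and 3.91 in the vehicle libraries and of 19.1 and 16.1 in the CDDD11-8 libraries. Both CDDD11-8 values lay above both vehicle values. The FOS peak was 1358 and 1190 bp wide with vehicle and 5276 and 4663 bp wide with CDDD11-8, or 1274 ± 119 and 4970 ± 433 bp (SD, n = 2 each), a ratio of means of 3.9. The extra width lay on both sides of the TSS. Upstream, the peak reached 635 and 728 bp with vehicle and 2133 and 1926 bp with CDDD11-8. Downstream, it ended at 722 and 461 bp with vehicle and at 3142 and 2736 bp with CDDD11-8, which is -260 and -666 bp relative to the TES. FOS gene coverage was therefore 13.6% and 5.22% with vehicle and 91.6% and 78.5% with CDDD11-8, all of it inside the promoter peak. No base of the 3 kb after the TES was covered in any library.
The single summit of the vehicle peaks sat at the TSS, at -40 and 45 bp. With CDDD11-8 the strongest summit stayed there, at -10 and 55 bp, and weaker summits appeared on either side. Upstream, CDDD11-8 replicate 1 had a summit at -1035 bp with a fold enrichment of 8.83, and replicate 2 had one at -1095 bp with 6.81. Inside the gene, the strongest summits lay in coding sequence of exon 4, at 2422 bp with a fold enrichment of 4.34 and at 2559 bp with 2.89. In replicate 2 a summit at 1308 bp, 57 bp from the start of another FOS transcript, had the same fold enrichment of 2.89 and a higher pileup, 59.6 in comparison with 30.8. There were 0 body summits in each vehicle library and 2 and 3 in the CDDD11-8 libraries, all within the promoter peak.
The rank of the FOS peak depended on the score used. By fold enrichment it ranked 67473 and 22972 in the vehicle lists, at percentiles of 13.8 and 60, and 6297 and 4794 in the CDDD11-8 lists, at 75.7 and 78.1. Among promoter peaks alone the percentiles were 7.38 and 9.83 with vehicle and 37.4 and 50.7 with CDDD11-8. FOS thus stood near the bottom of the promoter ranking with vehicle and below or at its middle with CDDD11-8. By pileup the percentiles overlapped between treatments, at 93.6 and 88.5 with vehicle and 90.7 and 87.6 with CDDD11-8. The q-value gave 87.1 and 83.5, and 85.4 and 84.9. At the strongest FOS summit the pileup was 118 and 63 with vehicle and 229 and 220 with CDDD11-8. The pileup divided by the fold enrichment, which stands for the local background in the same units, was 43.6 and 16.1 with vehicle and 11.9 and 13.7 with CDDD11-8. Its median over the 9701 promoters with a peak in all 4 libraries was 15.9 and 8.85 with vehicle and 6.26 and 9.64 with CDDD11-8. The FOS quotient was thus above the median of its own list in every library, by the widest margin in vehicle replicate 1, where the fold enrichment was lowest. Its part in the result was not tested. Another region lay far upstream, from -20902 to -18829 bp and from -21451 to -18476 bp in the vehicle libraries, and held the starts of the lncRNAs ENSG00000258820 at -19417 bp and ENSG00000289340 at -19857 bp. Its fold enrichment was 5.48 and 6.11 with vehicle, above that of the FOS promoter, and 12.4 and 7.21 with CDDD11-8, below it.

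FOSB, a FOS family member that is also spliced into a truncated form, is at 45971254 to 45978437 on chromosome 19, on the plus strand, inside the oppositely transcribed ERCC1. It had no promoter peak with vehicle. With CDDD11-8 its promoter peak had a fold enrichment of 9.94 and 3.13 and a width of 3748 and 945 bp. Its percentile in the whole list was 65.7 and 22.9, so the peak of CDDD11-8 replicate 2 was among the weaker ones of its list. The −log10 q of the promoter peak was 37 and 4.66, the latter below the alternative threshold of 5. All 4 libraries had a region further in. With vehicle it spanned 860 to 2662 bp and 866 to 2558 bp after the TSS, and its strongest summits lay in the first intron at 1779 bp, with a fold enrichment of 4.62, and at 1678 bp, with 6.01. In CDDD11-8 replicate 2 this region stayed separate, from 856 to 2601 bp, with its strongest summit at 1918 bp and a fold enrichment of 6.56. In replicate 1 it was joined to the promoter peak, and the highest summit was at 1333 bp with 9.94. Annotated FOSB transcripts start 1880, 1890 and 1917 bp after the TSS used here. FOSB gene coverage was 26.2% and 24.6% with vehicle and 39.7% and 30.1% with CDDD11-8. The separate region of replicate 2 covered 25.4% of the gene and the promoter peak 4.71%, the former close to the vehicle values. The log2 ratio of the promoter to the body summit was -1.02 and -1.34 in the CDDD11-8 libraries, the body summit being the stronger. An upstream region, from -18182 to -15422 bp in vehicle replicate 1, had counterparts in the other libraries, with fold enrichments of 4.8 and 5.41 with vehicle and 10.1 and 8.45 with CDDD11-8. It lay at annotated ERCC1 transcript starts, 124 and 98 bp from its summits at -17395 and -17173 bp in vehicle replicate 1.

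FOSL1, which encodes FRA1, a FOS family protein associated with invasive and basal-like breast cancer cells, occupies 65659520 to 65667890 of chromosome 11 on the minus strand. It had no promoter peak in any of the 4 libraries, and no region lay within the first 6 kb after its TSS. Its 3′ end was nevertheless covered, at 26.3% and 25.7% of the gene with vehicle and 27.2% and 23.7% with CDDD11-8, and the 3 kb after the TES were covered to 100% in all 4. These bases belonged to 1 region of 7018 to 8030 bp in every library, which began 6178 to 6455 bp after the FOSL1 TSS and contained the starts of CCDC85B and FIBP. CCDC85B is transcribed towards FOSL1 from a start 1376 bp past its TES. A gene or post-TES coverage value of FOSL1 therefore cannot be told apart from that of its neighbours.

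FOSL2, which encodes FRA2, covers 24.5 kb of chromosome 2, from 28615669 to 28640179 on the plus strand. Its promoter peak had a fold enrichment of 5.56 and 11.5 with vehicle and 26.3 and 15.7 with CDDD11-8. Its width was 4098 and 5515 bp with vehicle and 6991 and 6788 bp with CDDD11-8, with no overlap between treatments. The fold percentile in the whole list was 88.1 and 96 with vehicle and lower with CDDD11-8, at 83.8 and 77.1. Among promoter peaks it overlapped, at 47.6 and 78.4 with vehicle and 57.4 and 48.5 with CDDD11-8. Downstream of the TSS the peak reached 1268 and 2267 bp with vehicle and 3537 and 3223 bp with CDDD11-8, still over 20 kb short of the TES. Coverage of the gene was 8.32% and 8.13% with vehicle and 13.4% and 12.1% with CDDD11-8. Regions other than the promoter peak held 4.32% of the gene in vehicle replicate 1 and none of it in the other 3 libraries. The antisense lncRNA FOSL2-AS1 starts at 1878 bp, and all 4 libraries had a summit within 200 bp of that start. The log2 ratio of the promoter to the body summit was 0.19 and 1.08 with vehicle and 1.52 and 1.16 with CDDD11-8.

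JUN encodes the main DNA-binding partner of the FOS proteins and activates its own promoter. It is a single exon of 3257 bp at 59246463 to 59249719 of chromosome 1, minus strand. The promoter peak had a fold enrichment of 9.49 and 9.19 with vehicle and 58.6 and 34.8 with CDDD11-8, or 9.34 ± 0.212 and 46.7 ± 16.8 (SD, n = 2 each). In the fold ranking of each list it stood at 2308 and 4049 with vehicle and at 82 and 291 with CDDD11-8. Among promoter peaks its percentile was 81.2 and 62.7 with vehicle and 99.1 and 97 with CDDD11-8. By pileup the JUN percentile in the whole list went the other way, at 98.9 and 99 with vehicle and 96.3 and 96.9 with CDDD11-8, and by q-value it overlapped, at 99.1 and 98.1, and 99 and 98.6. The pileup divided by fold enrichment was 24.2 and 19.2 with vehicle and 4.8 and 8.97 with CDDD11-8, above the median of both vehicle lists and below that of both CDDD11-8 lists. Its part in the fold enrichment was not tested.
The JUN peak was 4978 and 5136 bp wide with vehicle and 8102 and 7849 bp with CDDD11-8. With vehicle it ended before the TES, at -244 and -906 bp relative to it. With CDDD11-8 it ran 665 and 1037 bp beyond the TES, and JUN gene coverage was 100% in both libraries. It had been 91.7% and 69.4% in the vehicle libraries. Post-TES coverage overlapped, at 0% and 25.3% with vehicle and 22.2% and 34.6% with CDDD11-8. The 25.3% of vehicle replicate 2 was a separate region from 3572 to 4329 bp after the TSS. The strongest summit lay at -214 and -67 bp with vehicle and at -244 and -39 bp with CDDD11-8, between the JUN TSS and the start of the divergent lncRNA LINC01135 at -337 bp. Another summit lay from -1575 to -1556 bp in all 4 libraries, with a fold enrichment of 5.14 and 6.2 with vehicle and 21.6 and 17 with CDDD11-8. Inside the gene, the strongest body summit was in the 5′ UTR with vehicle, at 590 and 905 bp, and in coding sequence with CDDD11-8, at 1490 and 1203 bp. The log2 ratio of promoter to body summit was 0.58 and 0.24 with vehicle and 1.30 and 1.05 with CDDD11-8.

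JUNB, a JUN protein with weaker transforming activity than JUN, is a single exon of 1830 bp on the plus strand of chromosome 19, from 12902300 to 12904129, inside the oppositely transcribed HOOK2. It lay within a domain of 18255 and 22616 bp with vehicle and 28449 and 28851 bp with CDDD11-8. The domain also held the starts of PRDX2 and THSD8 in all 4 libraries and that of RNASEH2A in the CDDD11-8 libraries, where vehicle had separate regions. When regions within 1 kb were merged, the difference in JUNB width between the group means went from 8214 to 943 bp, and the treatments were no longer separated. JUNB fold enrichment was 13.3 and 25.5 with vehicle and 39.3 and 29.2 with CDDD11-8, while its percentile among promoter peaks was 92.9 and 99.1 with vehicle and lower with CDDD11-8, at 86.3 and 91.4. The strongest summit was at 12, 17 and 33 bp in 3 of the libraries. In CDDD11-8 replicate 1 it was in coding sequence at 1082 bp, with a fold enrichment of 39.3 in comparison with 23 at the TSS. That summit lay 14 bp from an annotated start of a HOOK2 transcript. The gene and the 3 kb after its TES were covered to 100% in every library.

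JUND, the JUN family gene with the least signal-dependent expression, is a single exon of 1929 bp at 18390504 to 18392432 of chromosome 19, minus strand. It was the member whose promoter peak was narrower with CDDD11-8. The width was 12590 and 7915 bp with vehicle and 6222 and 7280 bp with CDDD11-8, or 10252 ± 3306 and 6751 ± 748 bp (SD, n = 2 each). The difference in means, -3502 bp, was -1164 bp without vehicle replicate 1 and -5839 bp without vehicle replicate 2. It lay downstream. The peak ran 7871 and 3211 bp past the JUND TES with vehicle and 1744 and 2529 bp past it with CDDD11-8, whereas its upstream reach was 2790 and 2775 bp with vehicle and 2549 and 2822 bp with CDDD11-8. In vehicle replicate 1 the region took in the start of IQCN, on the same strand, 5194 bp past the JUND TES. In the other 3 libraries smaller separate regions lay in that stretch. Post-TES coverage of JUND was 100% in both vehicle libraries and 70.7% and 85% with CDDD11-8. Fold enrichment at JUND was 11.1 and 24.2 with vehicle and 50 and 36.3 with CDDD11-8, and its percentile among promoter peaks overlapped, at 87.8 and 98.8, and 96.6 and 97.7. The top of the peak was broad. A summit lay between 321 and 341 bp after the TSS, in coding sequence, in all 4 libraries, and was the strongest in all but vehicle replicate 1, where one at -411 bp was slightly higher. The microRNA gene MIR3188 starts at -455 bp on the opposite strand.

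**Figure D2:**
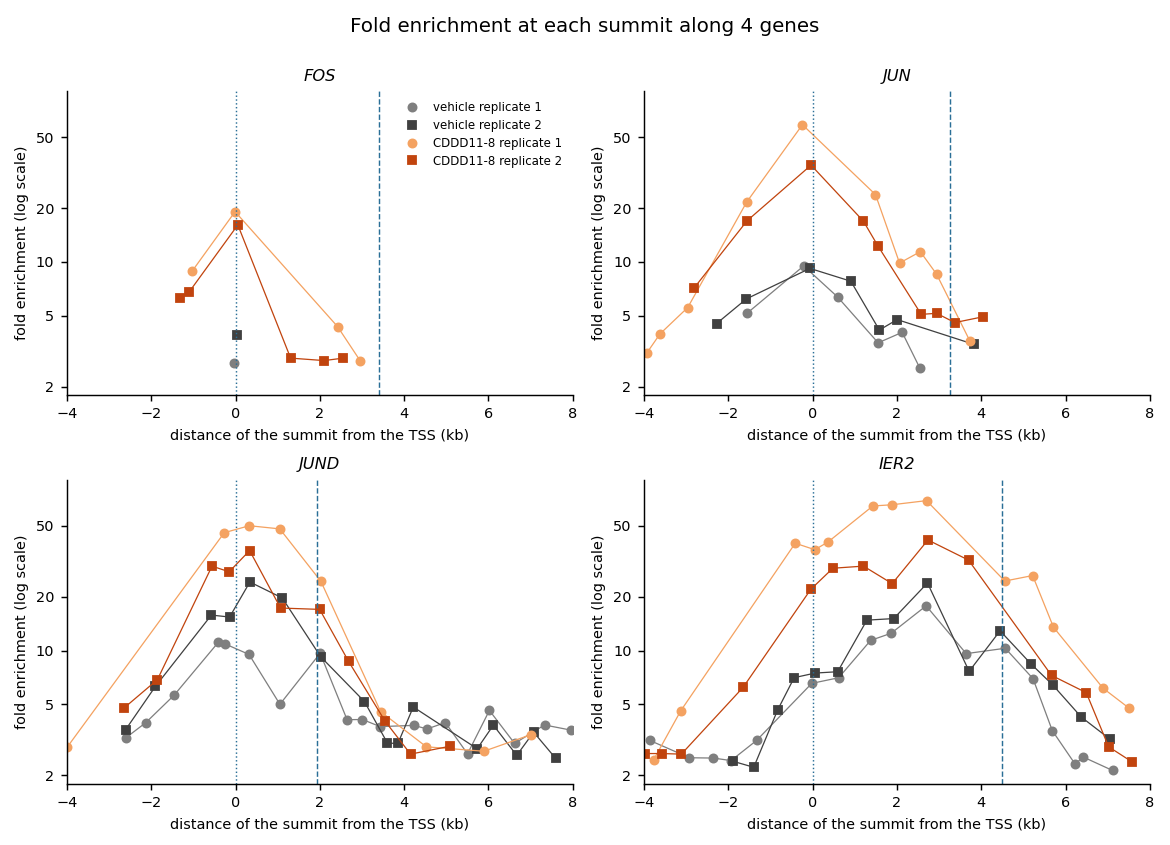
Fold enrichment at each summit (log scale) by distance from the TSS in kb for FOS, JUN, JUND and IER2, with a symbol per summit, lines joining summits of a library, a dotted line at the TSS and a dashed line at the TES. FOS, JUN and JUND were highest near the TSS in the CDDD11-8 libraries, with 19.1 and 16.1, 58.6 and 34.8, and 50 and 36.3, whereas IER2 was highest 2692 to 2735 bp after it in all 4 libraries.

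ATF3 encodes a stress-induced member of the ATF family that pairs with JUN proteins. Its longest isoform spans 55.4 kb on the plus strand of chromosome 1 and starts at 212738676, and no library had a promoter peak there. The canonical isoform starts at 212782103, 43427 bp downstream, and all 4 libraries had a peak at that start. The canonical promoter peak had a fold enrichment of 4.11 and 8.77 with vehicle and 20.4 and 6.77 with CDDD11-8, which overlap. The pileup divided by fold enrichment was 52.1 and 16.4 with vehicle and 8.95 and 23.9 with CDDD11-8, above the median of each list. The percentile in the whole list also overlapped, at 69 and 92.2 with vehicle and 77.2 and 59 with CDDD11-8. The width did not, at 1481 and 2064 bp with vehicle and 3683 and 2432 bp with CDDD11-8. The strongest summit was in the 5′ UTR of exon 1, at 62 and 66 bp with vehicle and at 104 and 93 bp with CDDD11-8. A weaker summit in the first intron, at 777 and 686 bp with vehicle and 729 bp in CDDD11-8 replicate 1, was missing in replicate 2. Gene coverage of the canonical isoform was 5.86% and 7.27% with vehicle and 12.7% and 8.24% with CDDD11-8, all of it in the promoter peak, which ended over 10 kb before the TES. Of the TATA box promoters printed above, ATF3 and FOS had narrow peaks with vehicle, JUNB lay in a domain of at least 18255 bp, and FOSB had none.

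IER2 is a 2-exon gene of 4501 bp on the plus strand of chromosome 19, from 13261225 to 13265725, with the STX10 TSS 28 bp away on the other strand. It had the strongest peak of the members in both CDDD11-8 libraries. Fold enrichment was 17.8 and 23.9 with vehicle and 69.1 and 41.6 with CDDD11-8, which ranked 291 and 136 in the vehicle lists and 16 and 83 in the CDDD11-8 lists. Its percentile in the whole list was 99.6 and 99.8 with vehicle and 99.9 and 99.6 with CDDD11-8. By pileup the IER2 percentile was 99.7 in both vehicle libraries and 99.3 in both CDDD11-8 libraries. The pileup divided by fold enrichment was 17.7 and 10.3 with vehicle and 4.99 and 9.36 with CDDD11-8. Its part in the fold enrichment was not tested. The strongest summit of IER2 was not at its TSS. It lay at 2692 and 2724 bp with vehicle and at 2702 and 2735 bp with CDDD11-8, in the 5′ UTR part of exon 2, just before the coding sequence at 2776 bp. The lncRNA ENSG00000287296 starts at 2502 bp on the opposite strand, and another IER2 transcript starts at 1564 bp. The summit within 300 bp of the IER2 TSS had a fold enrichment of 6.55 and 7.48 with vehicle and 36.7 and 22 with CDDD11-8. The log2 ratio of promoter to body summit was therefore negative in all 4 libraries, at -1.44 and -1.68 with vehicle and -0.91 and -0.92 with CDDD11-8, which do not overlap. The IER2 peak was 7599 and 9372 bp wide with vehicle and 13078 and 10105 bp with CDDD11-8. When regions within 1 kb were merged, the difference of the mean widths went from 3106 to 8300 bp and the treatments overlapped. Without CDDD11-8 replicate 1 it was 1620 bp. The peak ran past the TES in every library, by 1410 and 2832 bp with vehicle and 4628 and 3236 bp with CDDD11-8. Post-TES coverage was 87.5% and 94.4% with vehicle and 100% in both CDDD11-8 libraries.

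IER5 encodes a regulator of heat shock factor activity. It is a single exon of 4201 bp on the plus strand of chromosome 1, from 181057836 to 181062036. Its promoter peak had a fold enrichment of 8.75 and 16.1 with vehicle and 33.5 and 21.9 with CDDD11-8, and a width of 3232 and 4346 bp with vehicle and 6228 and 5524 bp with CDDD11-8. In spite of the higher fold enrichment, its percentile among promoter peaks was 77.4 and 93.5 with vehicle and lower with CDDD11-8, at 75.7 and 73. The peak ended before the TES in all 4 libraries. IER5 gene coverage was 38.8% and 57% with vehicle and 75.2% and 66.8% with CDDD11-8, and post-TES coverage was 0% throughout. The strongest summit lay at -71 and -58 bp with vehicle and at -31 and -38 bp with CDDD11-8, and the strongest body summit lay in coding sequence in each library, at 456 and 1085 bp with vehicle and 1167 and 413 bp with CDDD11-8. The lncRNA ENSG00000289589 starts at -161 bp on the opposite strand and runs upstream to -2056 bp. The strongest summit thus lay between its start and the IER5 TSS, and the upstream part of the peak overlapped it. The log2 ratio of promoter to body summit overlapped, at 0.96 and 1.73 with vehicle and 1.17 and 0.07 with CDDD11-8. A further region began 15402 to 15955 bp after the TSS in vehicle replicate 2 and both CDDD11-8 libraries, with a fold enrichment of 3.28, 9.88 and 6.13.

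**Figure D3:**
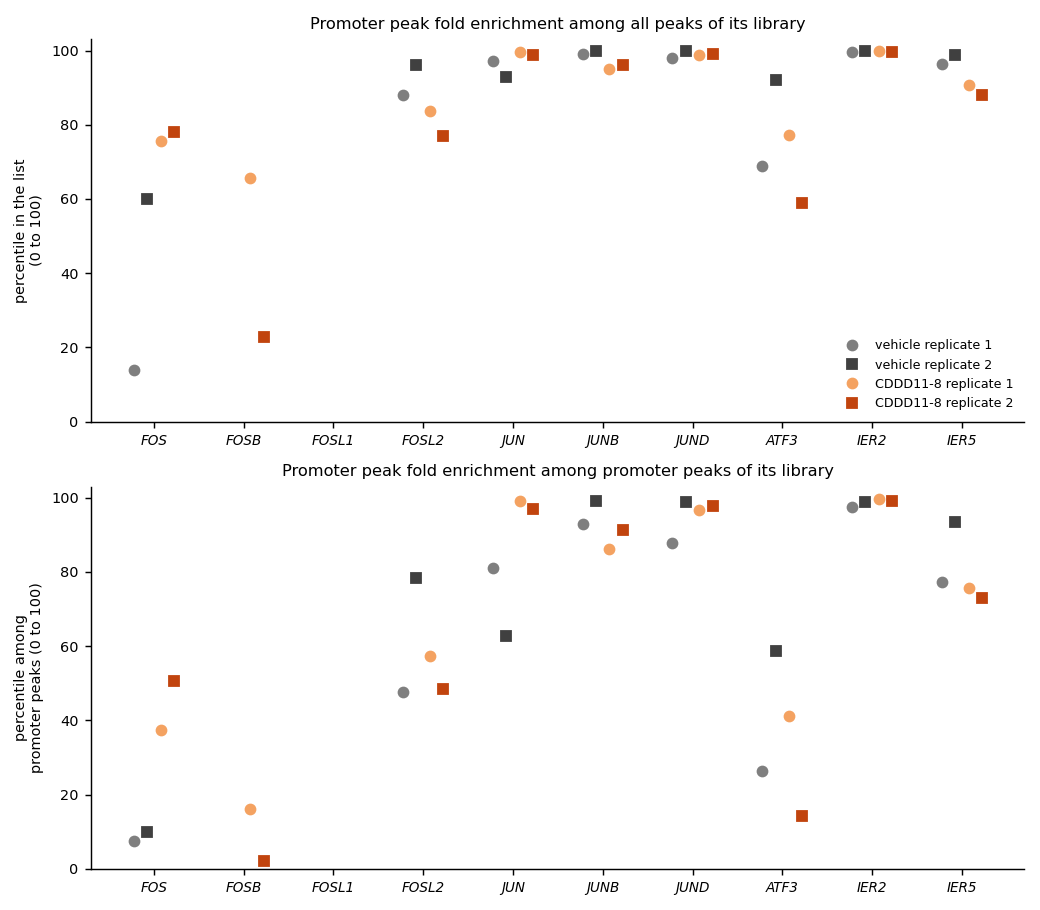
Percentile (0 to 100) of each member's promoter peak by fold enrichment, among all peaks of its library (top) and among promoter peaks of its library (bottom), with a symbol per library and none where there was no promoter peak. FOS and JUN were higher in both CDDD11-8 libraries in both panels, and JUNB and IER5 were lower in both.

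In the vehicle libraries the order of the members by fold percentile among promoter peaks ran from IER2, JUNB, JUND and IER5 at the top, through JUN, FOSL2 and ATF3, to FOS at the bottom. IER2 at 97.4 and 98.8, JUNB at 92.9 and 99.1 and JUND at 87.8 and 98.8 overlapped each other, as did IER5, JUN and FOSL2 with their neighbours in the order. ATF3 at 26.3 and 58.8 lay above FOS at 7.38 and 9.83. With CDDD11-8 the order became IER2 at 99.8 and 99.2, JUN at 99.1 and 97, JUND at 96.6 and 97.7 and JUNB at 86.3 and 91.4, followed by IER5 at 75.7 and 73. JUN and JUND overlapped each other there. FOSL2 at 57.4 and 48.5, FOS at 37.4 and 50.7 and ATF3 at 41.2 and 14.3 came next, each overlapping its neighbour, and FOSB was last at 16.1 and 2.11, overlapping ATF3. In the whole list, the percentile was higher in both CDDD11-8 libraries at FOS and JUN, 2 of 7 members. The same held for 9.03% of promoters with a peak in all 4 libraries. The percentile was lower at FOSL2, JUNB and IER5, 3 of 7, in comparison with 42.2%. These shares depend on the length of the lists. With equal numbers of peaks in each list, the percentile was higher at FOS, JUN and IER2, 3 of 7, and at 38.3% of all. Among promoter peaks alone it was higher at FOS, JUN and IER2, 3 of 7 (26% of all), and lower at JUNB and IER5, 2 of 7 (21.2% of all). Ranked by pileup, 0 of 7 members were higher (2.6% of all) and all but FOS were lower, 6 of 7 (83.5% of all). Ranked by q-value, 0 of 7 were higher (4.29% of all) and FOSL2, JUNB, JUND and IER5 were lower, 4 of 7 (74.1% of all). The fold enrichment itself was higher in both CDDD11-8 libraries at all 7 and at 88% of all promoters, and its median over all 9701 promoters was 6.15 and 8.43 with vehicle and 26.8 and 17.5 with CDDD11-8. At JUNB this call rested on the summit at 1082 bp in CDDD11-8 replicate 1. The JUNB summit within 300 bp of the TSS overlapped, at 13.3 and 25.5 with vehicle and 23 and 29.2 with CDDD11-8. The pileup divided by fold enrichment was lower with CDDD11-8 at FOS, JUN, JUND and IER2, 4 of 7 (30.6% of all). Its part in the fold enrichment was not tested.

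**Figure D4:**
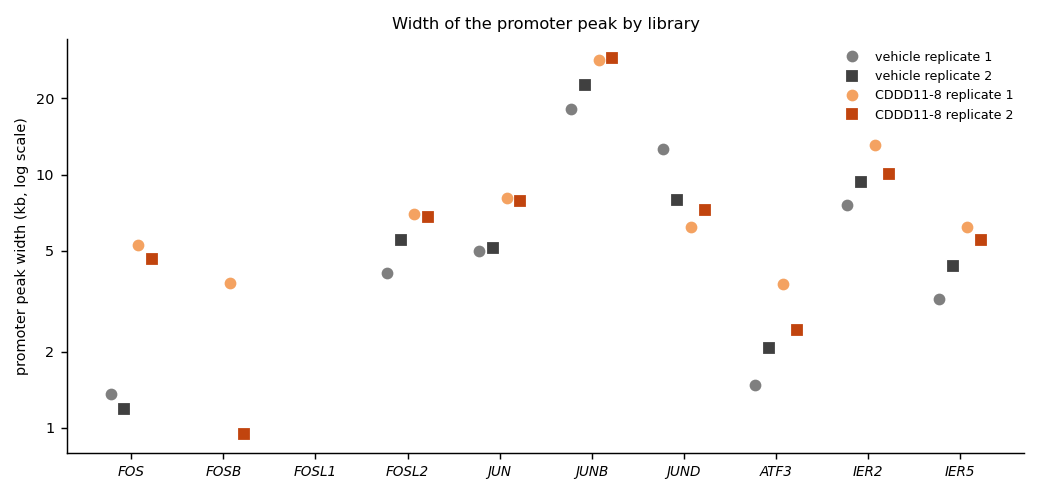
Width of the promoter peak in kb (log scale) for each member and library. The FOS peak went from 1358 and 1190 bp with vehicle to 5276 and 4663 bp with CDDD11-8, JUND was narrower with CDDD11-8, and ATF3 is drawn at its canonical TSS.

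Widths did not overlap between treatments at any of the 7 members. They were larger with CDDD11-8 at 6 of the 7, FOS, FOSL2, JUN, JUNB, IER2 and IER5, in comparison with 64.4% of all promoters with a peak throughout, and narrower at JUND, 1 of 7, in comparison with 9.42%. The same 6 reached farther upstream (66.5% of all promoters) and farther downstream (59.3%). The median ratio of mean widths was 1.43 over the 7 members and 1.42 over all 9701 promoters. The members as a list were thus close to promoters in general, with FOS at 3.9 the farthest above the median and JUND at 0.658 below it. With regions within 1 kb merged, 4 of 7 were wider (FOS, FOSL2, JUN and IER5), and 46.9% of all.
Gene coverage was higher in both CDDD11-8 libraries at 6 of 10 members, FOS, FOSB, FOSL2, JUN, ATF3 and IER5, in comparison with 16.6% of all protein-coding genes, and lower at 0 of 10, in comparison with 22.5%. At the longest isoform of ATF3, used in these counts, the peak at its canonical TSS lies inside the gene. Canonical isoforms gave the same 6 members (16% of all). With a −log10 q of at least 5, FOSB dropped out, leaving 5 members (20% of all). FOSB also dropped out with genes counted from 1 kb after the TSS (5 members, 14.6% of all). Without CDDD11-8 replicate 1, FOSL1 was lower, by the neighbouring region described above (29.4% of all). Of the members, FOSL2 and ATF3 are longer than 10 kb. Among genes of at most 10 kb with a promoter peak in all 4 libraries, coverage was higher at FOS, JUN and IER5, 3 of 6, in comparison with 19.3%, and lower at 0 of 6, in comparison with 22.1%. The other 3, JUNB, JUND and IER2, were covered to 100% in every library and had no room to be higher. With CDDD11-8, every covered gene base lay in the promoter peak at FOS, FOSL2, JUN, JUNB, JUND, IER2 and IER5, and at the canonical isoform of ATF3.
Post-TES coverage was lower in both CDDD11-8 libraries at JUND, 1 of 10 (23% of all genes), and higher at IER2, 1 of 10 (2.99%). Without vehicle replicate 2, FOSL2 was lower too (29.2% of all), and without vehicle replicate 2 or CDDD11-8 replicate 1, JUN was higher too (4.39% and 3.19% of all). The promoter peak reached the TES in both CDDD11-8 libraries at JUN, JUNB, JUND and IER2, 4 of 7, in comparison with 7.35% of all, and in both vehicle libraries at the last 3 of them, 3 of 7, in comparison with 8.48%. Among genes of at most 10 kb these counts were 4 of 6 and 3 of 6, in comparison with 32.3% and 34.7%.
The log2 ratio of promoter to body summit could be formed in all 4 libraries at 5 members. It was higher with CDDD11-8 at FOSL2, JUN and IER2, 3 of 5, in comparison with 58.1% of 5133 genes, and lower at 0 of 5, in comparison with 5.12%. JUN dropped out with a ratio of pileups, leaving FOSL2 and IER2 (44.7% of genes). JUN also dropped out with body summits from 1 kb after the TSS to 3 kb after the TES (71.1% of genes). Without vehicle replicate 1, JUND was higher too (63.4% of genes). Body summits were more numerous with CDDD11-8 at FOS, 1 of 10 (4.34% of all genes), and fewer at 0 of 10 (25.7% of all). With body summits counted from 1 kb after the TSS to 3 kb after the TES, they were fewer at JUND and IER2, and at 29.4% of all genes. They were fewer at IER2 without vehicle replicate 1, at JUNB without vehicle replicate 2, at FOSL1, JUNB and ATF3 without CDDD11-8 replicate 1, and at IER2 and IER5 without replicate 2. The shares of all genes were 30.4%, 35%, 31.9% and 29% in that order.

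**Figure D5:**
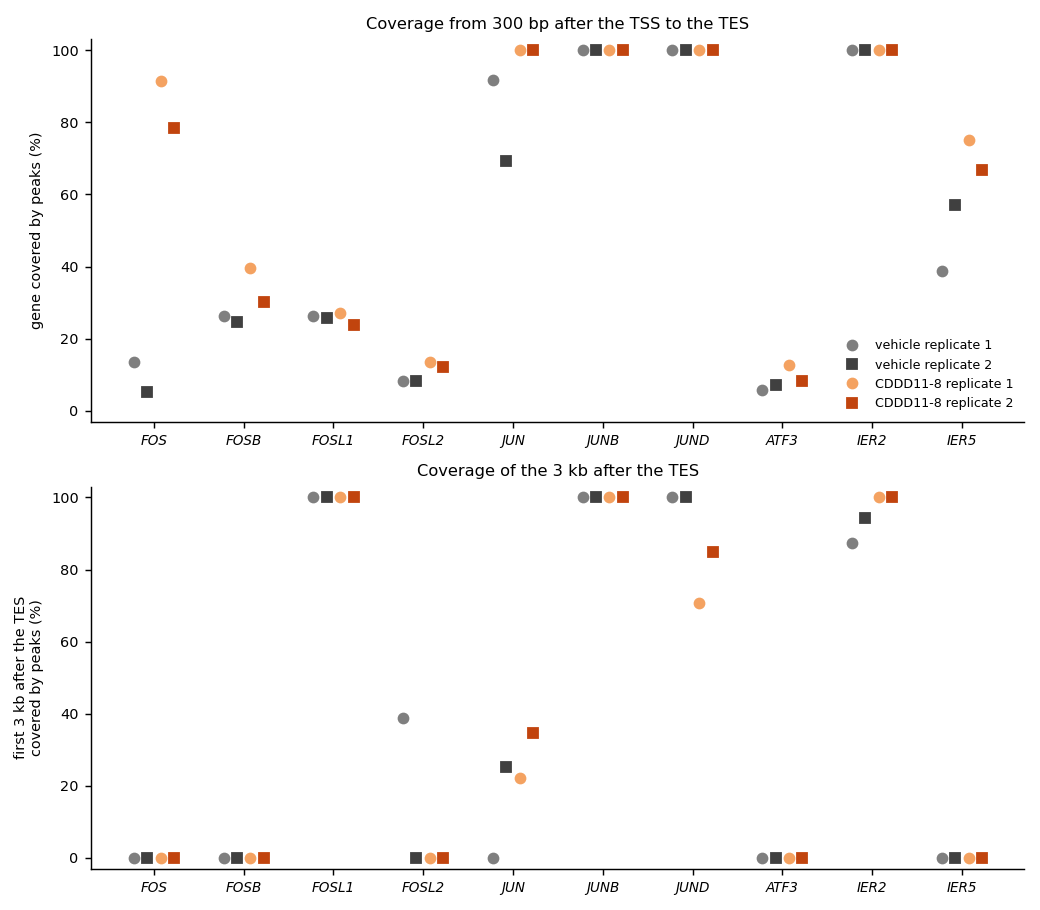
Percent of the gene (top, from 300 bp after the TSS to the TES) and of the 3 kb after the TES (bottom) inside peaks, for each member and library, with ATF3 at its canonical isoform. FOS went from 13.6% and 5.22% to 91.6% and 78.5% of the gene and stayed at 0% after the TES, and JUND went from 100% after the TES to 70.7% and 85%.

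Genes around AP-1 were described from lists chosen with the members. Over all protein-coding genes, 49.1% had a promoter peak in all 4 libraries. Of these peaks, 64.4% were wider and 9.42% narrower with CDDD11-8, with a median width ratio of 1.42. Of the 15 basic leucine zipper partners, such as the BATF, MAF and CREB families, 10 had a promoter peak in all 4 libraries. Of these the peak was wider with CDDD11-8 at 5 and narrower at 1, with a median width ratio of 1.19. ATF4, the effector of the integrated stress response, had the highest fold percentile of this list, and its peak was 18336 and 19440 bp wide with vehicle and 23157 and 20976 bp with CDDD11-8. ATF6, a sensor of endoplasmic reticulum stress, had the lowest, with 1086 and 876 bp, and 2693 and 3681 bp. Of the 17 genes that induce AP-1 genes, serum response factor, its ternary complex partners and MAP kinases, 15 had a promoter peak throughout, wider at 11 and narrower at 0, with a median width ratio of 1.58. ELK1, a ternary complex factor, ranked highest, with widths of 2641 and 1944 bp, and 4629 and 4448 bp. RPS6KA1, the ribosomal S6 kinase RSK1, ranked lowest, with 1256 and 904 bp, and 3901 and 3104 bp. Of 16 other early response genes, 13 had a promoter peak throughout, wider at 6 and narrower at 4, with a median ratio of 1.03. IER3 ranked highest, and its peak was 31711 and 9496 bp wide with vehicle and narrower with CDDD11-8, at 7915 and 8092 bp, like that of JUND. TRIB1, a pseudokinase gene, ranked lowest, with 3386 and 3298 bp, and 5827 and 5796 bp. Gene coverage was higher and lower with CDDD11-8 at 4 and 3 of the 15 partners, 4 and 6 of the 17 inducers and 4 and 1 of the 16 other early genes, in comparison with the 16.6% and 22.5% given above.

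The 5 genes most like FOS among 9680 compared, by the mean absolute difference over 12 values (fold percentile in the whole list, gene coverage and post-TES coverage in each of the 4 libraries), were TRAPPC2B at 5.75 percentage points, CCDC96 at 7.19, RASL11A at 8.84, EID2 at 9.77 and TMEM160 at 10.7. They were 1455 to 4363 bp long. In vehicle replicate 1 the percentile was at most 10.9 at the first 4 and 65.3 at TMEM160, in comparison with 13.8 at FOS. Gene coverage with CDDD11-8 was 68.2% or more at all 5, in comparison with 91.6% and 78.5% at FOS.

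The labelled cell line was checked against its markers. All 7 luminal markers reported (ERBB2, FOXA1, SPDEF, GATA3, KRT8, KRT18 and TFAP2B) had a promoter peak in every library, with vehicle percentiles of 88.1 to 100 in the whole list, KRT8 and KRT18 sharing their peak. Their fold percentile among promoter peaks was lower in both CDDD11-8 libraries at 7 of 7, in comparison with the 21.2% of all promoters given above. Of 7 markers of basal, leukocyte, endothelial and fibroblast cells, 6 were among the genes measured, 5 of these had no promoter peak in any library, and COL1A1 had one only in CDDD11-8 replicate 1.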

How the data were processed

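RNAPII ChIP-seq libraries of MDA-MB-453 cells (2 with vehicle, 2 with 600 nM CDDD11-8, 4 h) were analysed from the authors' peak lists. According to the methods, the authors used Bowtie 2 for alignment to GRCh37 (hg19) and MACS2 for peaks, library by library, against the paired input. The submitters' processing notes also name DiffBind and deepTools. Tool versions are not given in the sources used here, and replicates were not pooled. The deposited pileup is a signal, scaled by the caller. The deposited fold enrichment is a ratio to the local background, and the deposited p-value and q-value are on the −log10 scale, at least 2.00 for q. A deeper library gives more weak peaks, so ranks in the whole list, widths and coverage depend on depth and scaling, and depth is unknown. The input libraries were not analysed here.

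GENCODE release 44, as lifted to GRCh37, gave 19748 protein-coding genes, used at the longest and canonical isoforms. A value is called higher or lower where both CDDD11-8 libraries lie beyond both vehicle libraries, and the share of all genes called the same way is given beside the members' counts. Replicates are separate passages, so their spread includes culture differences. The members, the lists and the measures were chosen with earlier results of these data known, and the percentile among promoter peaks, the quotient of pileup and fold enrichment, the ranks of members by other scores and the regions away from the genes were added after the values were seen. All members are named; of each list, the genes with the highest and lowest mean fold percentile are named, and the 5 genes nearest FOS. Measures were tested on simulated peaks at 2000 genes. Alternatives covered thresholds, equal numbers of peaks, windows, isoforms, ranks, merging, each library left out and a replicate block. Python 3.11.15, numpy 2.4.6, pandas 2.3.3 and matplotlib 3.10.9 were used. A further marker gene of the line is not reported here.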

Additional observations from a re-analysis of the deposited data

How the results depend on the processing

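Of 86 recomputed counts, 71 stayed within 1.5 times the main count, 15 moved further and 0 turned direction. Of 143 recomputed differences in width or gene coverage of single members, 141 moved by less than the spread between replicates, and no difference whose treatments did not overlap changed sign. With 2 libraries per treatment, leaving out 1 never moves a difference by more than the SD of that treatment. Those settings could therefore not count as moved, and the larger of their moves are given below. The overlapping FOSL1 gene coverage difference of -0.576 percentage points was 1.14 without CDDD11-8 replicate 2. The difference in width moved at JUNB, to 943 bp, and at IER2, to 8300 bp, with regions within 1 kb merged. Higher post-TES coverage went from 1 member to 2 (JUN and IER2) when peaks needed a −log10 q of 5 or more and with equal numbers of 21842 peaks. Higher fold percentile went from 2 members to 0 when ranked by pileup and to 0 when ranked by q-value. With equal numbers of peaks it was found at 3 members (FOS, JUN and IER2). The share of all promoters then went from 9.03% to 38.3%. Fewer body summits went from 0 members to 2 (JUND and IER2) with summits from 1 kb after the TSS to 3 kb after the TES. The causes were not tested. Without single libraries (named in the report), the count with fewer body summits ranged from 1 to 3, higher post-TES coverage from 1 to 2, lower post-TES coverage from 1 to 2 and lower gene coverage from 0 to 1. With a replicate block, which asks only that same-numbered libraries move the same way, higher post-TES coverage was found at 2 members (JUN and IER2) and fewer body summits at 2 (JUNB and IER2), and no other count changed by over 1.5 times. Deviations of same-numbered libraries from their group means did not go together across the 9701 promoters. The correlations were -0.0268 for the percentile, -0.0144 for width and -0.0618 for gene coverage. They rest on 2 pairs and cannot show whether same-numbered libraries are paired. The main counts used no pairing, and the counts with the replicate block did. Leaving out 1 library moved some non-overlapping differences by over 1.5 times. Without vehicle replicate 1, the width difference went from 2083 to 1374 bp at FOSL2 and from -3502 to -1164 bp at JUND, and that of gene coverage from 19.4 to 30.6 percentage points at JUN and from 23.1 to 14.1 at IER5. Without vehicle replicate 2, it was -5839 bp at JUND and 8.25 points at JUN. Without CDDD11-8 replicate 1, IER2 width went to 1620 bp, and gene coverage went from 9.49 to 4.68 points at FOSB. The gene coverage difference at the longest isoform of ATF3 went from 2.33 to 1.2 points. With all 4 libraries it was 3.92 points at the canonical isoform. Without CDDD11-8 replicate 2, FOSB was at 14.3 points. The lists do not give read depth, so its effect on these values could not be assessed.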
